A study of Mus musculus with 27 samples.

Results

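WSB/EiJ is a wild-derived inbred strain of the house mouse subspecies Mus musculus domesticus, and its hepatocyte transcriptome was set against that of 8 other inbred strains. The WSB/EiJ members are 3 of the 27 libraries of the series, and the other 24 are 3 libraries each of the wild-derived CAST/EiJ and PWK/PhJ and of the laboratory strains A/J, NZO/HlLtJ, C57BL/6J, NOD/ShiLtJ, DBA/2J and 129S1/SvImJ. All libraries were polyA-selected RNA of hepatocytes from the liver of female mice aged 12 weeks. The labels give no treatment, transgene or engineered allele in any strain, and they call the libraries of a strain biological replicates without saying more of the animals. The WSB/EiJ libraries carry the replicate numbers 2, 3 and 4. The wider study asked how genetic variation relates to histone marks, DNA methylation and expression, and those other assays were not analysed here.

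Hepatocytes secrete most plasma proteins, make bile acids, apolipoproteins and urea, and clear drugs and hormones through cytochromes P450, sulfotransferases and glucuronosyltransferases. Many of these enzymes sit in clusters of recently duplicated genes, such as the Cyp2b, Serpina and Mup (major urinary protein) clusters, whose members differ between mouse strains. Hepatocytes near the portal vein and near the central vein of a lobule divide this work, so that ureagenesis is periportal and glutamine synthesis is pericentral. CAST/EiJ and PWK/PhJ come from other subspecies, whereas the remaining 6 strains are classical laboratory strains of mainly domesticus ancestry.

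WSB/EiJ was compared with the mean of the 8 other strains, each strain weighted equally, over 14482 genes. At an adjusted p under 0.05 (edgeR's quasi-likelihood test with Benjamini-Hochberg adjustment), 2242 genes (15.5%) were higher in WSB/EiJ and 1339 (9.25%) were lower. A gene may pass this contrast because a few other strains stand low or high, so a stricter call was made as well. A gene was called particular to WSB/EiJ when its 8 differences from the single strains had the same sign and the largest of the 8 p-values passed the same threshold after adjustment over all genes. By that rule 59 genes (0.407%) were higher and 41 (0.283%) were lower in WSB/EiJ than in every other strain, 100 genes (0.691%) in all. All 100 had also passed the contrast with the mean of 8. In 59 of them the 3 WSB/EiJ libraries lay above all 24 others and in 40 they lay below, with Pclo as the exception since an A/J library was also at 0. Such separation of libraries was seen above in 1.65% and below in 0.932% of all tested genes.

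**Figure D1:**
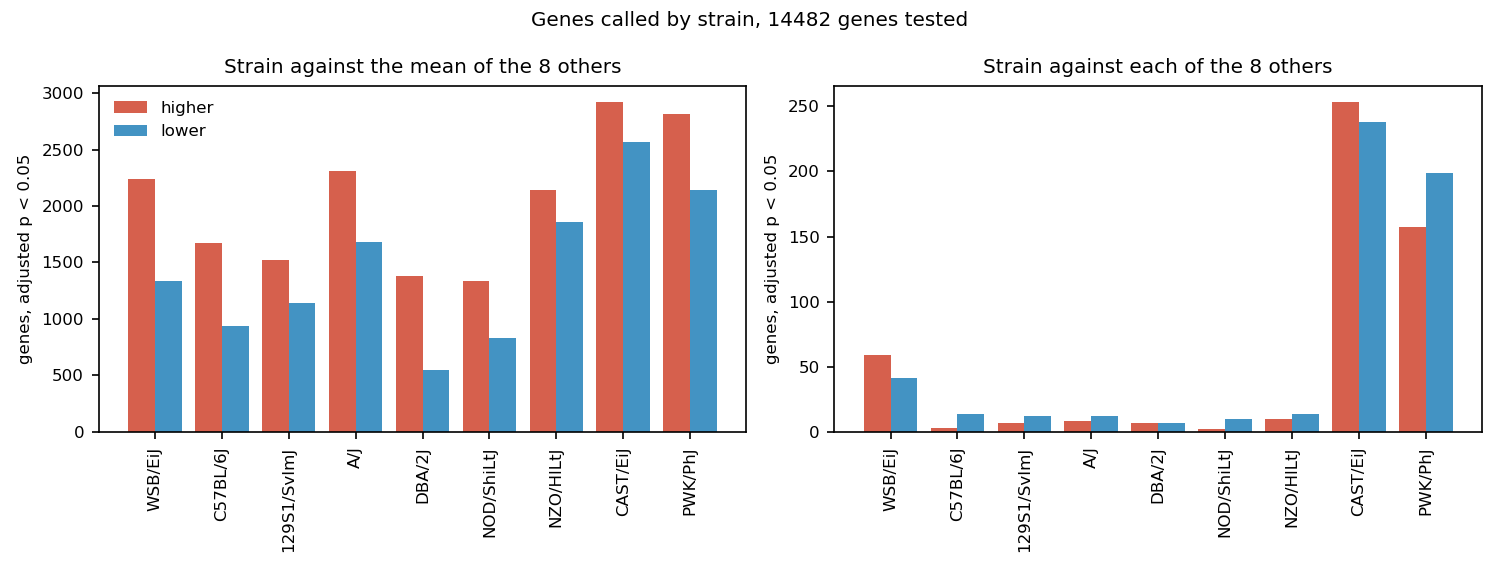
Number of genes called higher and lower in each strain against the mean of its 8 counterparts (left) and against every other strain (right), of 14482 genes tested at adjusted p under 0.05. WSB/EiJ had 100 genes differing from every strain, more than any classical strain (12 to 24) and fewer than CAST/EiJ (491) and PWK/PhJ (356).

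Scored in the same way, the classical strains had 12 (NOD/ShiLtJ) to 24 (NZO/HlLtJ) genes differing from every other strain, and CAST/EiJ and PWK/PhJ had 491 and 356. In the contrast with the mean of the others WSB/EiJ, with 3581 genes (24.7%), lay within the range of the classical strains, between DBA/2J with 1922 and NZO/HlLtJ with 4002. These contrasts share libraries, and the differences between the counts were not tested. Set against single strains, WSB/EiJ differed in the fewest genes from C57BL/6J (1976), DBA/2J (1995) and A/J (2098), and in the most from CAST/EiJ (5294). Mean correlation with WSB/EiJ ordered the strains otherwise. It was 0.927 for C57BL/6J, below 0.932 for 129S1/SvImJ and 0.931 for NOD/ShiLtJ, and lowest for PWK/PhJ (0.890). The 3 WSB/EiJ libraries correlated with each other at 0.974 to 0.981 across genes.

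The hepatocyte label was checked against markers. Albumin (Alb) was 174786, 180432 and 202576 CPM in WSB/EiJ replicates 2, 3 and 4. CPM stands for counts scaled to a common library total, after that total was multiplied by a normalization factor (TMM). These values are not divided by gene length, so they are compared between strains and not between genes. Of the 15 hepatocyte markers 7 were called higher and none lower, against 15.5% and 9.25% over all genes. The number higher was 5 without WSB/EiJ replicate 2, 3 or 4. The summed level of these markers was 280199 to 301110 CPM in WSB/EiJ against 139178 to 399410 CPM in the other libraries. Of the few cholangiocyte and lymphocyte markers that could be tested, Sox9 (1 of 2) and Cd4 (1 of 3) were lower, against 9.25% over all genes. No lymphocyte marker was called lower once WSB/EiJ replicate 2, 3 or 4 was left out. The summed level of the 15 Kupffer cell (liver macrophage) markers was 352 to 607 CPM in WSB/EiJ against 146 to 744 CPM in the other libraries, and that of the 15 endothelial markers was 192 to 264 CPM against 82.0 to 1009 CPM. Of the Kupffer cell and endothelial markers Folr2, Lyve1 and Slc40a1 passed the test. That was 13.3% of the Kupffer cell and 6.67% of the endothelial markers, against 24.7% of all genes. Folr2 had at most 2 counts in each WSB/EiJ library against a mean of 2.12 CPM over the other strains, and CAST/EiJ was nearly as low (0.101 CPM). Lyve1 was lower by a log2 difference of -3.05 ± 0.65 (SE) and Slc40a1, the iron exporter ferroportin, higher by 1.08 ± 0.17. In bulk RNA fewer cells of a type and less RNA per cell cannot be told apart. The Y-linked Ddx3y and Eif2s3y had 0 counts in all 27 libraries and Xist had 7776 to 14441 counts in WSB/EiJ, which matches the female label.

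The promoter windows of a chaperone pair and of a P450 pair that were high in WSB/EiJ are shown because each pair comes from 1 gene family. They are 250 bases of RefSeq reference sequence (GRCm38.p6) before the gene start and are the C57BL/6J sequence, not that of WSB/EiJ. Hspa1a (chr17:34972157-34972406, minus strand) and Hspa1b (chr17:34959239-34959488, minus strand) encode the stress-inducible chaperone Hsp70, and capitals mark the heat shock element letters GAANNTTC.
Hspa1a: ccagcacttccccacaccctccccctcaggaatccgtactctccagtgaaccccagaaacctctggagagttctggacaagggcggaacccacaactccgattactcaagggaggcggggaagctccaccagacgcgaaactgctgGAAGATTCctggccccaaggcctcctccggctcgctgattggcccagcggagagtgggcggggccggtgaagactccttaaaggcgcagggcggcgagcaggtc
Hspa1b: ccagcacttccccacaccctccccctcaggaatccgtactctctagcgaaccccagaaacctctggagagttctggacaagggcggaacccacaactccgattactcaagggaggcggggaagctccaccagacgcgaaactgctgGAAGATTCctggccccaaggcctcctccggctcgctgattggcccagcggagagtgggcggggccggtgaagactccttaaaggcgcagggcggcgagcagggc
The windows differ at 3 of 250 positions and hold the match at the same place, with its first base 104 bases before the start. Of 32851 promoter windows of this length, 2199 (6.69%) held GAANNTTC on either strand. Cyp2b19 (chr7:26756892-26757141, plus strand) and Cyp2b23 (chr7:26686431-26686680, minus strand) lie in the Cyp2b cluster, and capitals mark the runs of 15 or more bases that both windows hold.
Cyp2b19: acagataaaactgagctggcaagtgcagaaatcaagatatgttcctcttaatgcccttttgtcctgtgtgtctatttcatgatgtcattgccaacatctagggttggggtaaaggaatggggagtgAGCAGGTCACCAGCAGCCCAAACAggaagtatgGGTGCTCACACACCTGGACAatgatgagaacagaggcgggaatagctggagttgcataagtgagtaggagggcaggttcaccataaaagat
Cyp2b23: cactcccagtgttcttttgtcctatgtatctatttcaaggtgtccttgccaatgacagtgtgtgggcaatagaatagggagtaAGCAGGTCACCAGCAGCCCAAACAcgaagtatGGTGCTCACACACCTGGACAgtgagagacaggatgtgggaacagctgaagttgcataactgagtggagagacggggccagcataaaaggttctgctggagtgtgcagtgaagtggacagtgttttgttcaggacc
There are 2 such runs, the longer of 24 bases. A match of letters is a description and shows neither a binding site nor a cause.

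Drug- and hormone-metabolizing enzymes held several of the genes higher in WSB/EiJ than in every other strain. Cyp2b19, a P450 better known from skin as an epoxygenase of arachidonic acid, was 4.17, 16.9 and 12.2 CPM in WSB/EiJ and had at most 2 counts in each of the 24 other libraries. Cyp2b23 was 2.66, 3.51 and 6.44 CPM, with at most 1 count in any other library. Both genes passed the filter on low counts only through the WSB/EiJ libraries, so their values are a description and no test is given. Of the 59 higher genes, 4 had at most 3 counts in every other library. The neighbouring Cyp2b9, Cyp2b13 and Cyp2b10, named after their values were seen, were called higher against the mean of 8 as well. Cyp2b9 was 1467, 1590 and 1571 CPM against 1.86 to 1075 CPM in the other libraries, without overlap (log2 difference 2.57 ± 0.17). Cyp2b13 and Cyp2b10 overlapped the other strains and were highest in DBA/2J (531 CPM) and NOD/ShiLtJ (654 CPM).

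Cyp2u1, which hydroxylates long-chain fatty acids, was 32.8, 35.1 and 17.1 CPM in WSB/EiJ against a lowest, median and highest value of 0.483, 2.84 and 9.78 CPM in the others. All 3 WSB/EiJ libraries lay above the other 24. Genes named by rule as particular were chosen for such separation, so it is no further support where it is stated for them. The difference of Cyp2u1 from the nearest strain, NZO/HlLtJ, was 2.12 ± 0.29 on the log2 scale (adjusted p 0.000161). Sult1e1, the estrogen sulfotransferase, was 67.8, 136 and 116 CPM against 0, 0.826 and 43.2 CPM. The groups did not overlap, and the nearest strain was again NZO/HlLtJ (2.54 ± 0.58, adjusted p 0.0336). That call was lost without WSB/EiJ replicate 3 or 4 (adjusted p 0.182 and 0.112). Cyp2d22, the xenobiotic exporter Abcb1a and the lysosomal beta-glucuronidase Gusb were also particular to WSB/EiJ and are named here after their values were seen. Cyp2d22 was 756, 965 and 973 CPM against 48.2 to 435 CPM, Abcb1a was 45.7, 63.7 and 60.3 CPM against 1.04 to 26.95 CPM, and Gusb was 70.4, 108 and 106 CPM against 24.4 to 46.3 CPM. None of the 3 overlapped with another strain.

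Over the whole list of xenobiotic P450 genes, 21 of 47 tested were called higher and 5 lower, against 15.5% and 9.25% over all genes, with a median log2 difference of 0.48 against 0 over all genes. These counts include Cyp2b19 and Cyp2b23, which entered the test only through WSB/EiJ. Cyp3a59 and Cyp3a41b were far lower, at -4.99 ± 0.32 and -4.96 ± 0.94, but PWK/PhJ and NOD/ShiLtJ, respectively, stood nearly as low. Among sulfotransferases 10 of 16 were higher and 2 lower, with 6 higher without WSB/EiJ replicate 2 or 3. Sult1c2 was the sulfotransferase lower than in every other strain, at 0.506, 0.403 and 0.460 CPM against 1.28 to 9.96 CPM; its adjusted p of 0.0084 became 0.0807 and 0.0521 without replicate 3 and 4. Glucuronosyltransferases were called higher in 7 of 17 and lower in 3. Ugt1a1, which conjugates bilirubin, was 1948, 2270 and 1128 CPM (1.17 ± 0.15) and shares exons with the other Ugt1a genes, so its level is uncertain. Glutathione S-transferases split, with 5 of 24 higher and 8 lower, and leaving out 1 WSB/EiJ library took these counts down to as few as 2 and 4. Carboxylesterases were higher in 5 of 17 and lower in 2. Without replicate 2, 3 and 4 they were higher in 3, 3 and 7 and lower in 1, 1 and 0, and higher in 2 without CAST/EiJ and PWK/PhJ and in 8 with the Kupffer and endothelial covariates. Ces2h was 158, 157 and 145 CPM and 6.55 ± 0.14 above the mean of 8, yet PWK/PhJ had 113 CPM and did not differ from WSB/EiJ beyond the spread (0.44 ± 0.23). Col5a2, a fibrillar collagen chain, was 676, 755 and 224 CPM, with PWK/PhJ next at 241 CPM and overlapping (1.19 ± 0.32 from it, adjusted p 0.136). These 2 genes stood far above most strains without being particular to WSB/EiJ.

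**Figure D2:**
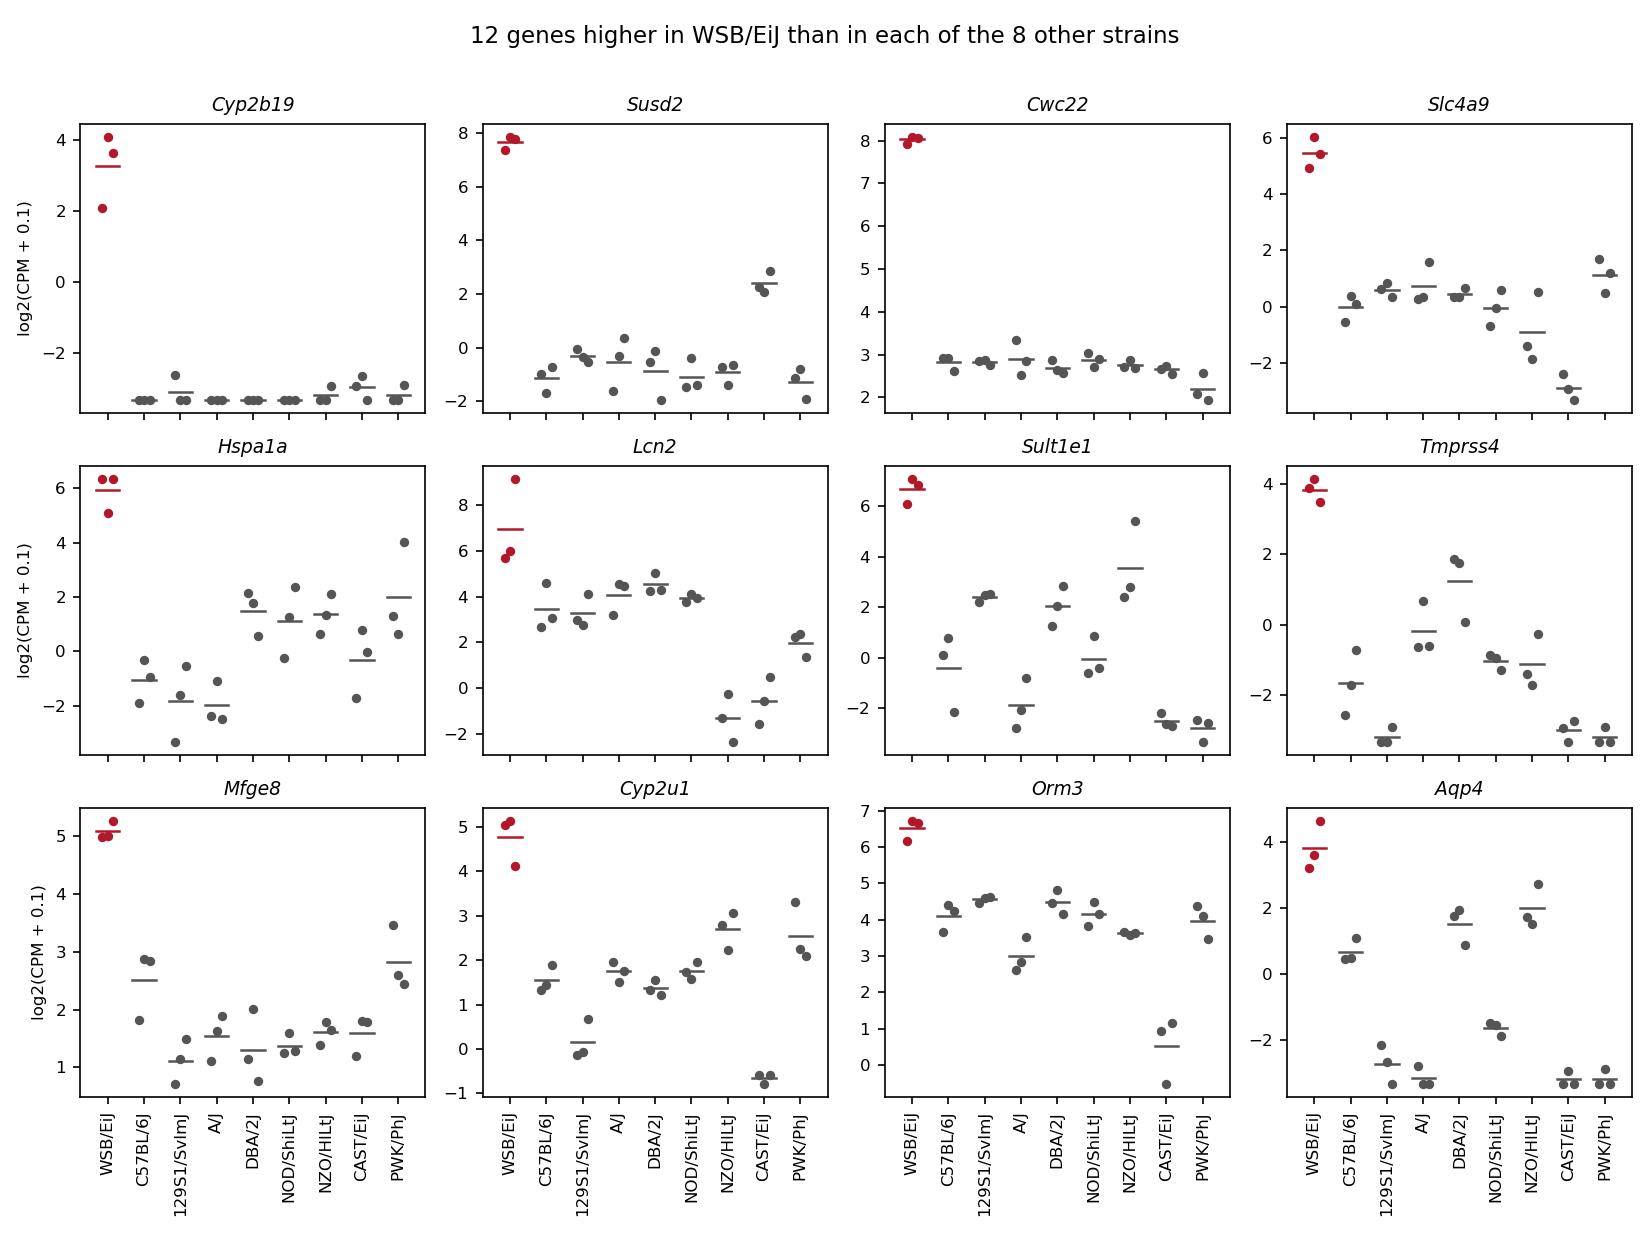
Level of each of the 12 named genes higher in WSB/EiJ than in every other strain, as log2(CPM + 0.1) by strain. Points are libraries, bars strain means, and WSB/EiJ is red. Its 3 points lie above all 24 others in each panel, which the rule that chose these genes required.

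Outside metabolism, the higher genes included Cwc22, Susd2 and Slc4a9. Cwc22 (chr2:77881159-77946375, minus strand, GRCm38), a splicing factor that also helps to place exon junction complexes, lies in a segment known to vary in copy number among mice. It was 243, 272 and 268 CPM in WSB/EiJ against 3.75, 6.50 and 10.1 CPM as the lowest, median and highest other library. Every other strain was at about the same low level, and WSB/EiJ was 34.4-fold above the nearest, A/J (log2 5.10 ± 0.19, adjusted p 5.87e-15). The predicted genes Gm13691, Gm13693, Gm13694, Gm13696, Gm13697 and Gm13698 lie further along chromosome 2 and are also particular to WSB/EiJ. Their deposited values were identical to each other in every library (9.23, 10.5 and 10.9 CPM in WSB/EiJ, at most 0.946 CPM elsewhere), so they carry 1 measurement between them. Their call over every strain was kept under 34 of 35 alternatives. Susd2, a membrane protein with a sushi domain, was 163, 231 and 217 CPM against 0.159, 0.527 and 7.17 CPM. CAST/EiJ was the nearest strain at 5.32 CPM and the rest were lower still (5.28 ± 0.35, adjusted p 1e-09).

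Slc4a9, a bicarbonate transporter, was 30.3, 66.1 and 43.8 CPM against 0, 1.17 and 3.15 CPM, and lay 4.40 ± 0.48 above PWK/PhJ (adjusted p 3e-06). Tmprss4, a membrane serine protease, was 14.7, 17.6 and 11.1 CPM against 0, 0.243 and 3.55 CPM, and lay 2.50 ± 0.49 above DBA/2J (adjusted p 0.0084, and 0.0846 without WSB/EiJ replicate 3). Aqp4, a water channel, was 9.23, 12.1 and 25.0 CPM against 0, 0.149 and 6.57 CPM. Neither of these membrane proteins overlapped with another strain, but the call of Aqp4 over NZO/HlLtJ (1.89 ± 0.40, adjusted p 0.0174) was lost without replicate 4 (0.446). Mfge8, a secreted protein that links phosphatidylserine on dying cells to phagocytes, was 31.4, 31.7 and 38.3 CPM against 1.55, 3.00 and 10.9 CPM. PWK/PhJ was its nearest strain (2.20 ± 0.31, adjusted p 0.000173).

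The stress chaperone Hspa1a was 79.9, 33.8 and 81.0 CPM in WSB/EiJ against 0, 1.12 and 16.1 CPM in the others, above all 24. It lay 3.28 ± 0.73 above PWK/PhJ (adjusted p 0.0259), which became 0.0975 and 0.113 without WSB/EiJ replicate 2 and 4. Hspa1b, whose promoter window is printed above beside that of Hspa1a, was 89.7, 38.3 and 114 CPM against 1.27, 5.03 and 97.9 CPM. It overlapped other strains, the highest of their libraries being one of PWK/PhJ, and was called against the mean of 8 only (3.31 ± 0.46, adjusted p 7.01e-06). The deposited counts of both were not whole numbers in any library, so reads may have been divided between these near-identical copies. Hsph1 and Dnajb1, a cochaperone pair of Hsp70, lay 1.24 ± 0.36 and 0.86 ± 0.29 above the mean of 8, and neither was called without replicate 2 or 4. Of the 29 genes of the unfolded protein response and chaperone list 10 were higher and none was lower. That count was 4 without replicate 2 and 5 without replicate 4, while the full fit called 15.5% of all genes higher.

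Acute phase proteins, which hepatocytes secrete in inflammation, were higher in 10 of 24 and lower in none, against 15.5% and 9.25% over all genes, with a median log2 difference of 0.42. WSB/EiJ replicate 4 stood apart for several of them. Lcn2, a siderophore-binding lipocalin, was 50.8, 63.4 and 571 CPM against 0.0962, 8.04 and 32.7 CPM, so that all 3 libraries lay above the other 24. It lay 3.26 ± 0.71 above DBA/2J (adjusted p 0.0209), and without replicate 4 this was 1.27 (adjusted p 1) while the difference from the mean of 8 stayed called at 3.36. Saa1 was 23.7, 32.5 and 487 CPM and Saa2 was 13.2, 21.7 and 342 CPM, and without replicate 4 their differences of 2.79 ± 0.62 and 3.32 ± 0.62 became 0.11 and 0.47 (adjusted p 0.966 and 0.739). Haptoglobin (Hp), named after its values were seen, was 3265, 4260 and 10915 CPM. By contrast the orosomucoid Orm3 was even, at 71.9, 106 and 100 CPM against 0.604, 15.6 and 28.1 CPM, and lay 1.98 ± 0.29 above 129S1/SvImJ (adjusted p 0.000392). Without replicate 4 the list had 6 members called higher. The part of that library in these results is given by these values and was not otherwise tested.

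Several genes were lower in WSB/EiJ than in every other strain. Those named by rule were again chosen for having no overlap with the other libraries. Gas6, a secreted ligand that bridges phosphatidylserine to the receptors Tyro3, Axl and Mertk, was 6.45, 3.47 and 2.85 CPM in WSB/EiJ against 17.2, 40.8 and 90.3 CPM as the lowest, median and highest other library. It was 5.35-fold below 129S1/SvImJ (log2 -2.42 ± 0.37, adjusted p 0.000498). Anxa5, an annexin that binds phosphatidylserine, was 8.39, 6.21 and 7.64 CPM against 10.3, 31.1 and 45.3 CPM. The groups did not overlap, but PWK/PhJ was close (-0.89 ± 0.18, adjusted p 0.0122), and the call was lost without WSB/EiJ replicate 3 or 4 (adjusted p 0.129 and 0.0521).

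Rilp, an effector of Rab7 on lysosomes, was 3.29, 4.80 and 4.69 CPM against 12.7, 15.6 and 20.4 CPM. The other 8 strains were tightly grouped for Rilp, and WSB/EiJ was 3.23-fold below the nearest, A/J (adjusted p 8.17e-08). Rhod, a small GTPase of endosomes, was 5.23, 4.03 and 5.29 CPM against 9.32, 13.9 and 18.8 CPM (-1.21 ± 0.21 from A/J, adjusted p 0.00226). An antisense gene overlaps Rhod, and reads of both strands of a locus cannot be told apart if the counting ignored strand.

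Ndrg1, a stress-responsive cytoplasmic protein, was 4.30, 3.71 and 3.27 CPM against 10.2, 27.4 and 70.5 CPM, and lay -1.63 ± 0.30 from PWK/PhJ (adjusted p 0.00476, and 0.0504 without WSB/EiJ replicate 4). Ptma, the nuclear protein prothymosin alpha, was 12.1, 11.7 and 10.6 CPM against 30.1, 51.2 and 72.7 CPM, and Ube2l6, the conjugating enzyme of the interferon-induced modifier ISG15, was 9.23, 7.54 and 11.6 CPM against 19.4, 38.1 and 70.1 CPM. CAST/EiJ was the nearest strain to both (-1.50 ± 0.22 and -1.22 ± 0.20, adjusted p 0.000365 and 0.00142). WSB/EiJ was below all 24 other libraries for each of these 3 genes. Vnn3, of the vanin family of pantetheinases, was 6.24, 5.00 and 5.11 CPM against 7.70, 54.8 and 140 CPM. Its median elsewhere was far higher, but PWK/PhJ averaged 10.3 CPM and the difference from it was -0.92 ± 0.20 (adjusted p 0.0208, and 0.182 and 0.137 without WSB/EiJ replicate 3 and 4).

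Ido2, which opens the tryptophan ring on the way to kynurenine, was 34.5, 43.4 and 44.2 CPM against 59.9, 83.6 and 131 CPM (-0.74 ± 0.13 from CAST/EiJ, adjusted p 0.00277). Pon3, a lactonase of the paraoxonase family carried on high-density lipoprotein, was 25.2, 28.3 and 24.9 CPM against 38.4, 58.4 and 100 CPM, and Cisd3, a mitochondrial iron-sulfur protein, was 7.12, 6.37 and 9.99 CPM against 10.9 to 41.3 CPM. Their groups did not overlap either, but the calls over every strain depended on single libraries. Pon3 (adjusted p 0.0364) was lost without any 1 of the 3 WSB/EiJ libraries (0.0883 to 0.213), and Cisd3 (0.0483) without replicate 2 or 3 (0.333 and 0.604). Nxpe2 and Pla2g16, a phospholipase that remodels membranes and fat, were nearly absent and are named here after their values were seen. Nxpe2 was 0.211, 0 and 0.138 CPM against 5.35 to 36.0 CPM, and Pla2g16 was 0.0843, 0.202 and 0.138 CPM against 2.61 to 10.6 CPM.

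Some of the calls over every strain also rested on single libraries of the other strains or on the fit. Sult1e1 was lost without NZO/HlLtJ replicate 1 or 2 (adjusted p 0.209 and 0.247) and Aqp4 likewise (0.146 and 0.158). Hspa1a was lost without PWK/PhJ replicate 1 or 2 (0.159 and 0.151), Vnn3 without the same libraries (0.205 and 0.0602), Anxa5 without PWK/PhJ replicate 1 (0.135) and Sult1c2 without PWK/PhJ replicate 2 (0.0716). Tmprss4 was lost without DBA/2J replicate 4 (0.0557), and Lcn2 without any 1 of the DBA/2J libraries (0.0599 to 0.150) or A/J replicate 1 (0.0854). Cisd3 and Pon3 were lost without many single libraries of other strains (up to 0.291 and 0.149). With DESeq2, Hspa1a and Sult1e1 were not called against every strain (0.0835 and 0.176). With the Kupffer and endothelial list means as covariates, calls were lost for Aqp4 (0.363), Lcn2 (0.0811), Sult1e1 (0.0524), Vnn3 (0.147), Anxa5 (0.126), Pon3 (0.140) and Cisd3 (0.119). By contrast Susd2, Cwc22, Slc4a9, Mfge8, Cyp2u1, Orm3, Gas6, Rilp, Ptma, Ube2l6, Rhod and Ido2 were called under all 35 alternatives run.

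**Figure D3:**
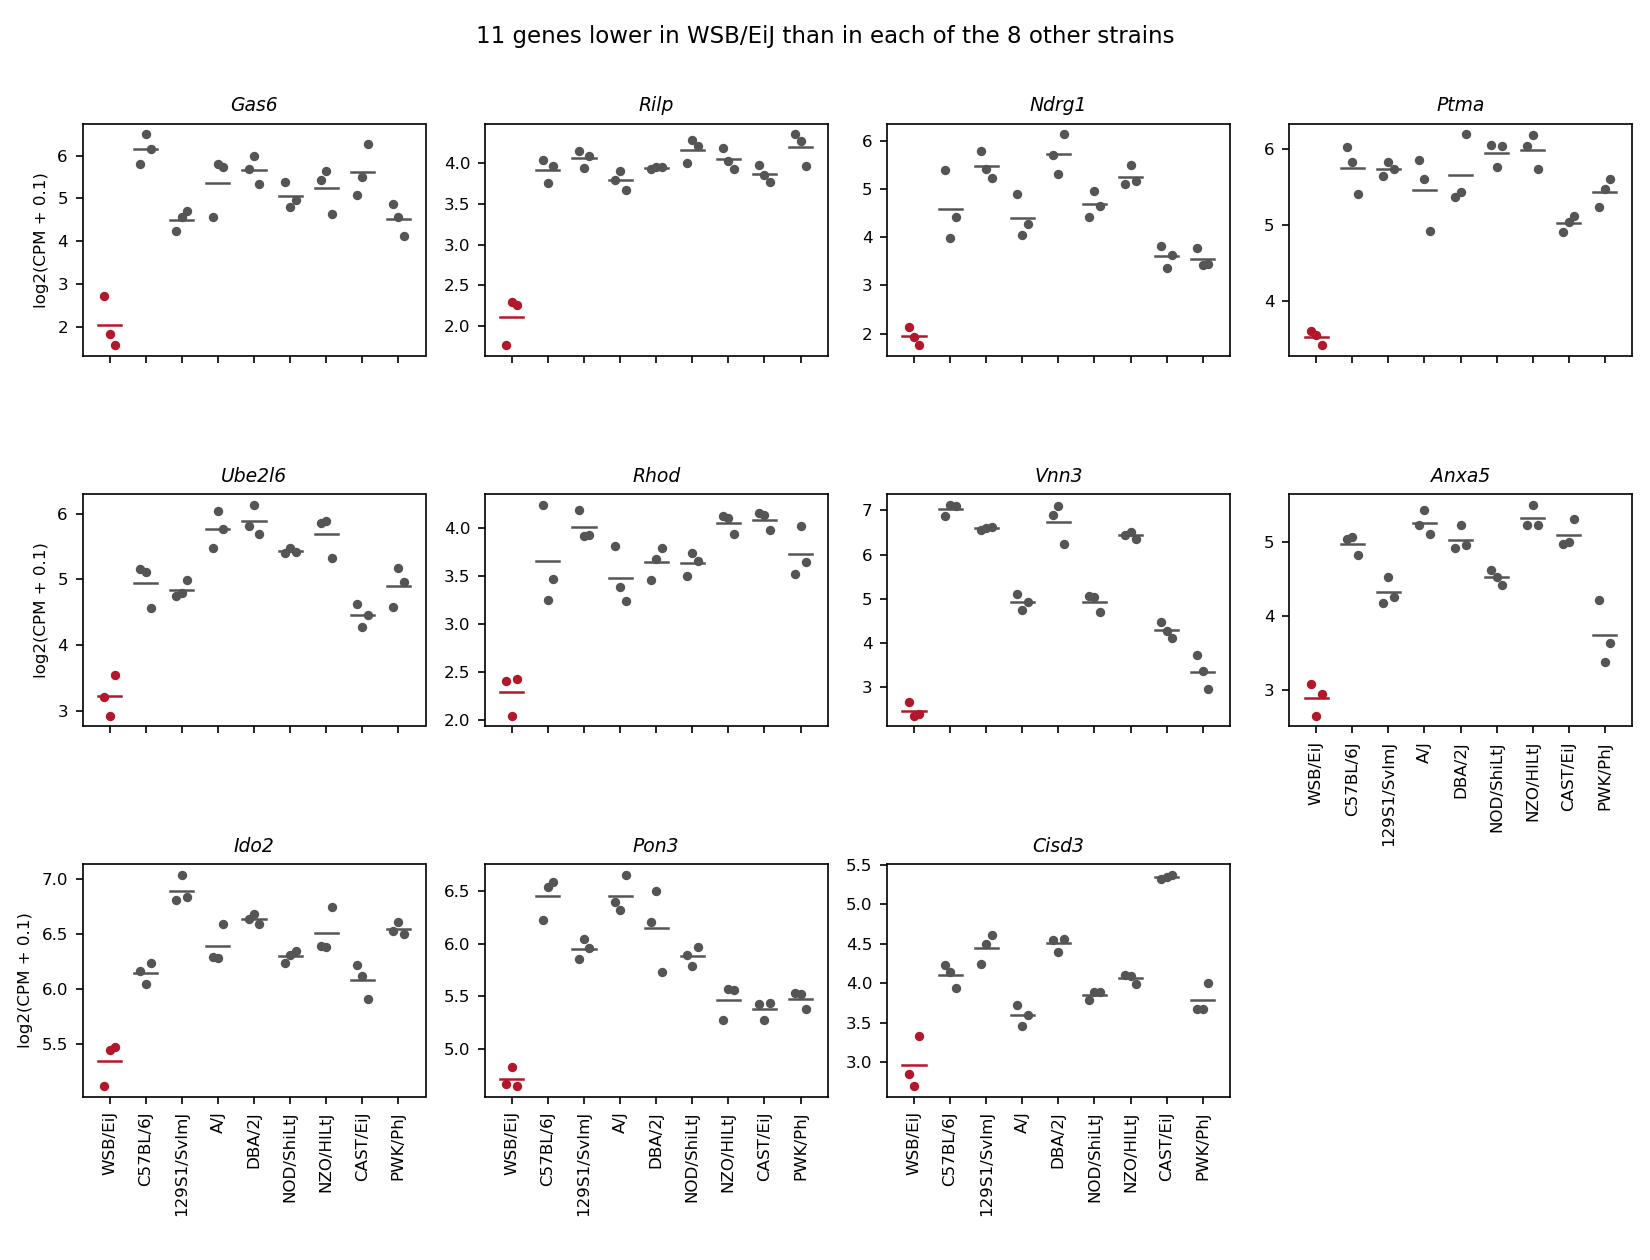
Level of each of 11 named genes lower in WSB/EiJ than in every other strain, as log2(CPM + 0.1) by strain. Points are libraries, bars strain means, and WSB/EiJ is red. Its 3 points lie below all 24 others in each panel, which the rule that chose these genes required. The margin is widest in Gas6 and Rilp.

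The 59 higher genes included 42 protein-coding genes (71.2%), 9 pseudogenes (15.3%) and 8 of other types, and the 41 lower ones 38 protein-coding genes (92.7%) and 2 pseudogenes. Over all tested genes 88.5% were protein coding and 4.47% were pseudogenes. The deposited counts of all 11 pseudogenes were not whole numbers in at least 24 libraries, so reads may have been divided between them and other loci. A value that was not whole in at least 1 library was found for 55 of the 100 genes, against 41.3% of all tested. The genome to which the reads were aligned, that of C57BL/6J or of each strain, is not given in the sources used here, and the effect of sequence differences on these counts was not tested.

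Among lists of liver genes, those of abundant secreted proteins had more members higher in WSB/EiJ than the 15.5% over all genes. Of 20 genes of the Serpina1 and Serpina3 families (antitrypsin and antichymotrypsin protease inhibitors) 13 were higher and 3 lower (1 without replicate 2 or 3), with a median log2 difference of 0.87. Serpina1a was 14598, 15006 and 16126 CPM against 236, 5732 and 12044 CPM, above all 24 other libraries (1.71 ± 0.11 against the mean of 8). Serpina3c was 417, 350 and 430 CPM and far above the mean of 8 (6.13 ± 0.11), with DBA/2J next at 280 CPM. The counts of both were not whole in any library, so reads may have been divided among family members. Apolipoprotein genes were higher in 15 of 25 and lower in 1 (median 0.52), coagulation genes higher in 13 of 24 and lower in 1 (0.43), and complement genes higher in 16 of 31 and lower in 3 (0.46), the last falling to 9 higher without WSB/EiJ replicate 3. The complement protease gene C1s2 was 46.5, 53.1 and 48.5 CPM (3.79 ± 0.12) and overlapped A/J, which averaged 45.5 CPM. Hc, encoding complement C5, was 1269, 1316 and 1112 CPM (1.13 ± 0.14), and C57BL/6J was close at 1178 CPM.

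Genes at 100 CPM or more were more often called higher in WSB/EiJ than those of lower level. By the median CPM of the other libraries, not corrected for length, 47.3% of the 112 genes at 1000 CPM or more were called higher and 4.46% lower, and 37.1% and 8.08% of the 903 genes between 100 and 1000 CPM. Between 10 and 100 CPM the shares were 16.3% and 10.3% of 5173 genes, between 1 and 10 CPM 10.8% and 12.4% of 4805 genes, and below 1 CPM 14.1% and 3.75% of 3489 genes. The lists of secreted proteins hold many genes of the upper range, and the part of this trend in their counts was not tested.

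**Figure D4:**
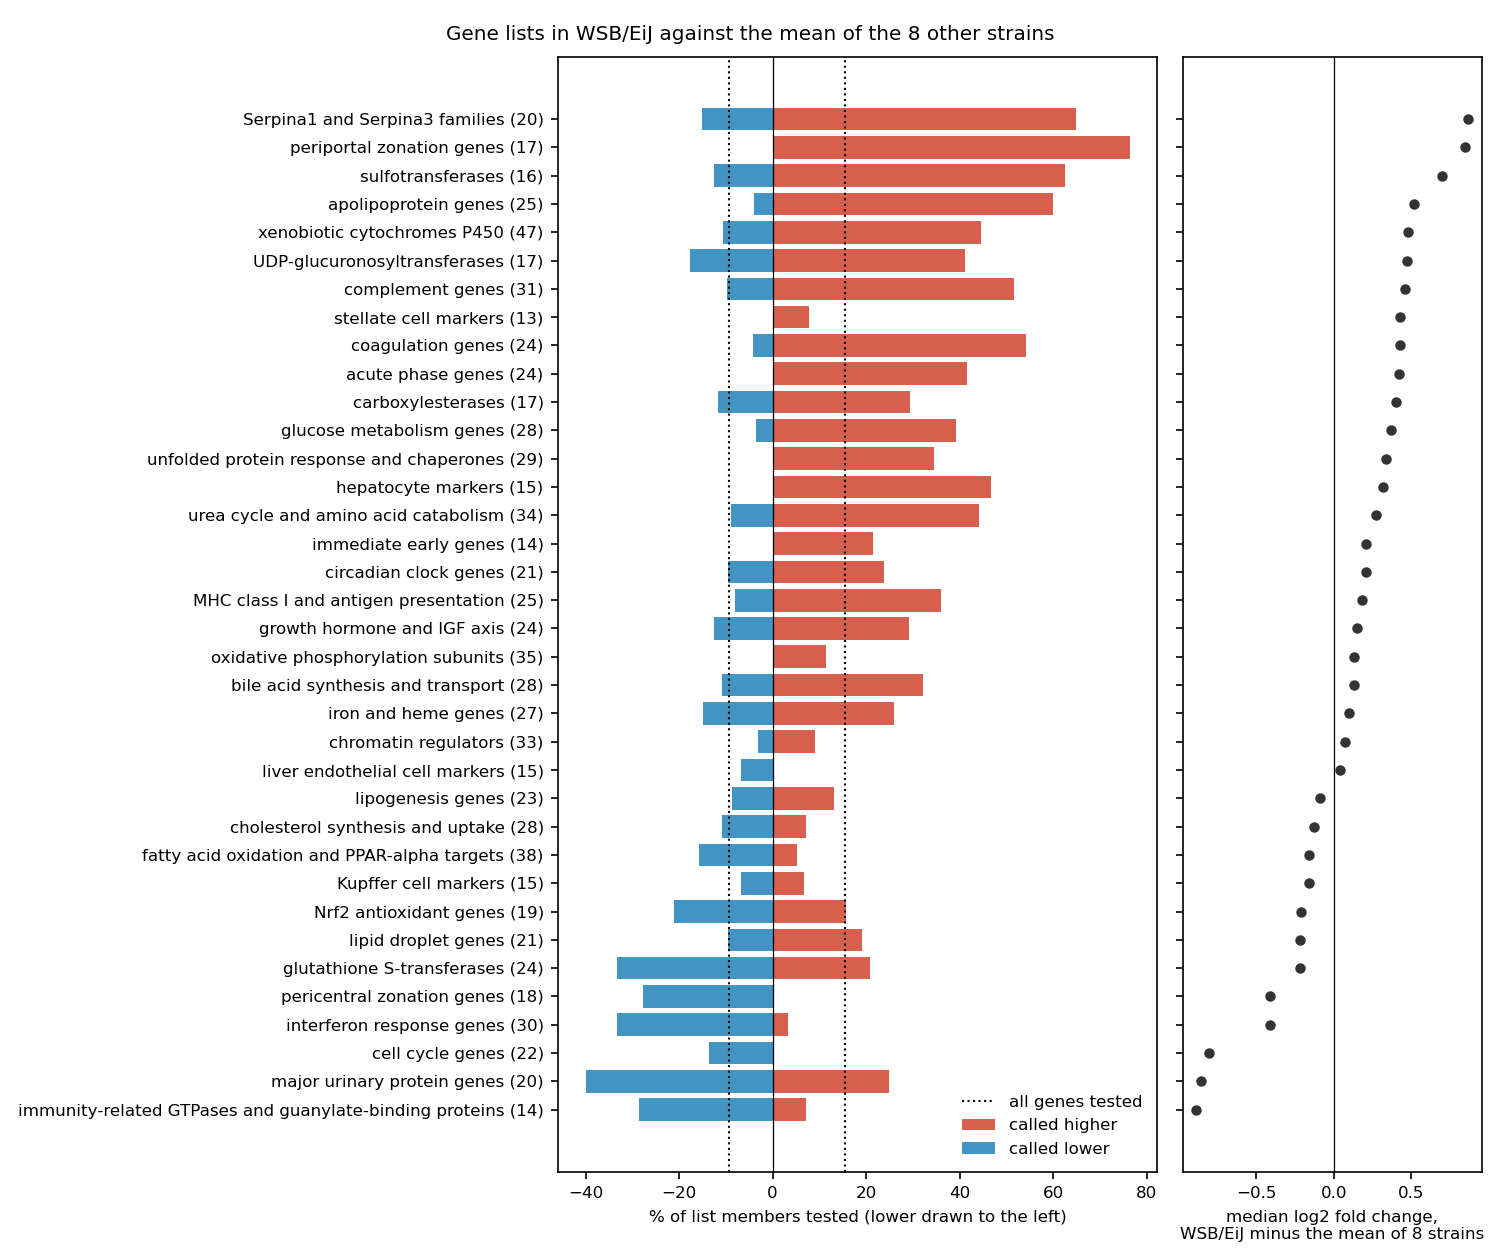
Share of tested members called higher and lower in WSB/EiJ for gene lists with at least 10 tested genes (left; dotted lines give 15.5% and 9.25%, the shares over all genes) and the median log2 difference of each list (right). Periportal, Serpina, sulfotransferase and apolipoprotein genes have the largest shares higher; interferon, pericentral and Mup genes have medians below 0.

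Of 30 interferon response genes 10 were lower, 1 was higher and 19 were not called, with a median of -0.41, against 9.25% lower and 15.5% higher over all genes. Mx1, an antiviral GTPase, had at most 3 counts in each WSB/EiJ library (0.126, 0.0807 and 0.138 CPM) against 0.143, 1.00 and 4.71 CPM. The gap between 0.138 and 0.143 CPM is smaller than 1 count (0.0253 to 0.0515 CPM over all libraries), so the groups are not clearly separated. Xaf1 was 1.48, 0.927 and 0.920 CPM (-1.79 ± 0.30) and Ifit3b was 0.590, 0.645 and 0.460 CPM (-1.71 ± 0.36), and both overlapped CAST/EiJ, the lowest other strain. Without WSB/EiJ replicate 4 the list had 5 lower members, and without CAST/EiJ and PWK/PhJ it had 13, with a median of -0.98. Of 14 immunity-related GTPases and guanylate-binding proteins 4 were lower and 1 higher, with 2 lower without replicate 4 and 8 lower without CAST/EiJ and PWK/PhJ. Tgtp1 had, after rounding, 1 count in replicate 2 and 0 in the others against 0.630 to 61.7 CPM elsewhere, and Gbp11 went up at 82.0, 48.8 and 26.0 CPM (2.11 ± 0.39), with A/J higher still at 140 CPM. The groups did not overlap for Tgtp1, and its deposited values before rounding were not whole in any library.

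Antigen presentation genes were higher in 9 of 25 and lower in 2, with 5 higher without CAST/EiJ and PWK/PhJ, against 15.5% and 9.25% over all genes. The 2 lower were the class I gene H2-D1, at 144, 133 and 139 CPM against 169, 450 and 887 CPM (-1.61 ± 0.21), and the class II gene H2-Eb1, at 0.169, 0.0807 and 0.0460 CPM against 0.332, 4.75 and 20.1 CPM (-5.31 ± 0.94). Both lay below all 24 other libraries, although neither passed against every strain. The strains carry different H2 haplotypes, and reads of class I genes resemble each other; the H2-D1 counts were not whole in any library.

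Zonation genes were counted by region, against 15.5% higher and 9.25% lower over all genes. Of 17 periportal genes 13 were higher in WSB/EiJ and none was lower, with a median log2 difference of 0.85, and leaving out any 1 WSB/EiJ library left 11 to 13 higher. Of 18 pericentral genes none was higher and 5 were lower, with a median of -0.41, and 3 were lower without replicate 2 or 4. Hsd17b13, a lipid droplet protein, was 914, 1191 and 1112 CPM against 288, 407 and 707 CPM, above all 24, and was particular to WSB/EiJ (adjusted p 0.0161, 0.0885 and 0.0676 without replicate 3 and 4, and 0.119 and 0.127 without PWK/PhJ replicate 2 and 3). Cps1, which starts the urea cycle, was 8160, 10041 and 8083 CPM against 2575, 5225 and 7008 CPM, also without overlap (0.85 ± 0.16). Ctsc, a lysosomal protease, was 476, 494 and 285 CPM against 85.0, 203 and 516 CPM (1.15 ± 0.15) and overlapped PWK/PhJ.

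On the pericentral side Glul, glutamine synthetase, was 124, 93.6 and 59.9 CPM against 82.5, 236 and 666 CPM (-1.40 ± 0.33, adjusted p 0.00226), and Oat, ornithine aminotransferase, was 127, 168 and 154 CPM against 92.1, 305 and 1201 CPM (-1.20 ± 0.28). WSB/EiJ had the lowest strain mean for both, with overlap. Axin2, a Wnt target, was 1.77, 2.82 and 1.56 CPM (-1.28 ± 0.38, adjusted p 0.0145), which was lost without replicate 2 or 4. Periportal genes are also mostly of high level, and the part of the level trend given above was not tested. Of the wider list of urea cycle and amino acid genes 15 of 34 were higher and 3 lower, with 9 higher without replicate 4, against 15.5% and 9.25% over all genes.

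**Figure D5:**
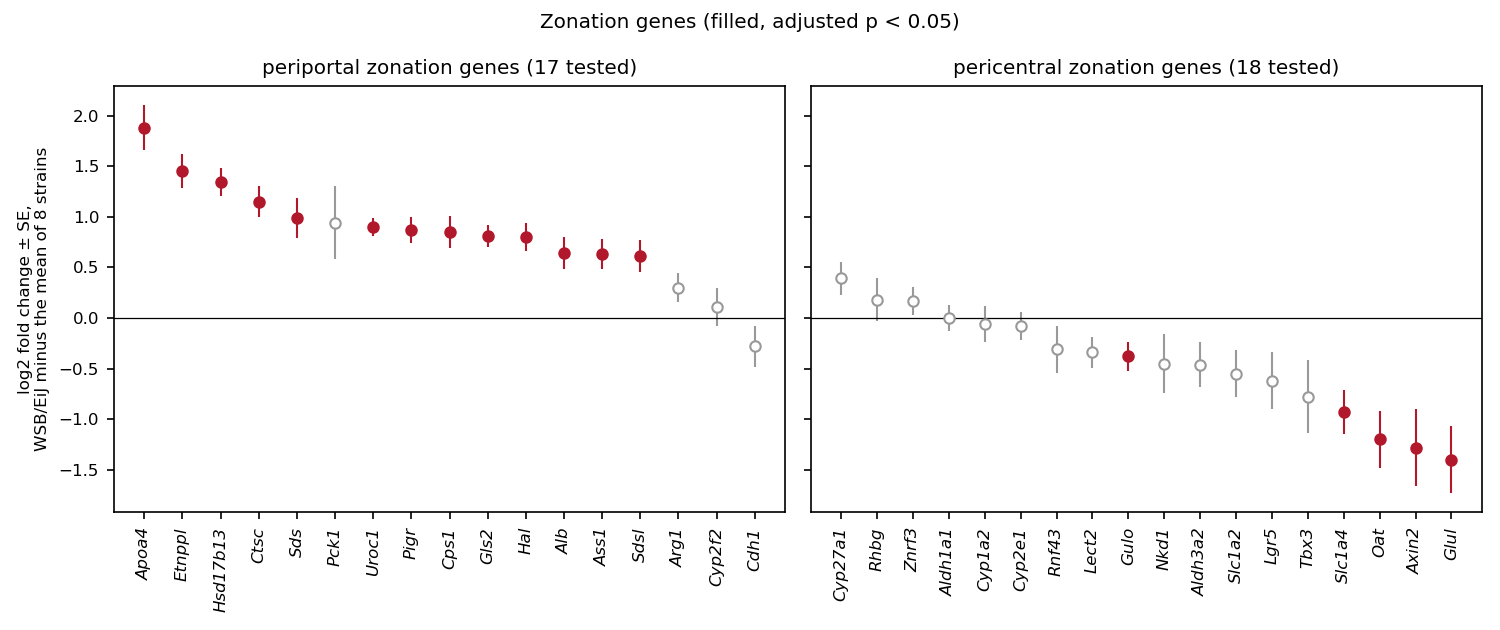
Log2 difference ± SE of WSB/EiJ from the mean of 8 strains for 17 periportal and 18 pericentral genes. Filled points passed at adjusted p under 0.05: 13 periportal genes, all above 0, and 5 pericentral genes, all below 0.

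Bile acid genes were higher in 9 of 28, against 15.5% over all genes, and lower in 3, with 1 lower without replicate 2 or 4. Cyp39a1, an oxysterol hydroxylase, was 82.6, 171 and 174 CPM against 0.557, 36.6 and 89.2 CPM (3.06 ± 0.16), and only replicate 2 fell within the range of CAST/EiJ. Cyp8b1, which sets the share of cholic acid, was 514, 534 and 922 CPM (1.19 ± 0.25) and overlapped PWK/PhJ. Lipogenesis genes were higher in 3 of 23 and lower in 2, and cholesterol genes higher in 2 of 28 and lower in 3, near or below the 15.5% and 9.25% over all genes. The number of cholesterol genes lower was 13 without replicate 2 and 0 without replicate 3. Pnpla3, a lipid droplet lipase and acyltransferase, was 1.94, 0.686 and 0.230 CPM against 0.806, 3.95 and 40.6 CPM (-2.43 ± 0.61). Pdk4, which turns down pyruvate oxidation in fasting, was 2.44, 2.66 and 2.35 CPM against 1.63, 9.97 and 28.4 CPM (-1.94 ± 0.40), and PWK/PhJ was about as low (2.73 CPM). Of its list, fatty acid oxidation and PPAR-alpha targets, 2 of 38 were higher and 6 lower, with 2 lower without replicate 3. Cyp4a14 was 244, 421 and 2882 CPM, and its difference of 1.11 ± 0.37 became -0.72 without replicate 4 and 0.08 without CAST/EiJ and PWK/PhJ.

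Glucose metabolism genes were higher in 11 of 28 and lower in 1, against 15.5% and 9.25% over all genes, but higher in 4 without replicate 4. Slc37a4, the glucose-6-phosphate transporter, was 331, 390 and 404 CPM against 116, 172 and 311 CPM, above all 24 (1.00 ± 0.21). G6pc, the phosphatase it serves, was 1264, 959 and 1052 CPM against 232, 522 and 1388 CPM (1.00 ± 0.26) and was not called without replicate 2 (adjusted p 0.0532). Of the growth hormone list 7 of 24 were higher and 3 lower, with 4 higher without replicate 2. Its member A1bg, female-predominant in mouse liver, spanned 10571, 4227 and 152 CPM within WSB/EiJ, so its difference of 3.25 ± 0.56 rests on replicates that differ widely. Clock genes were higher in 5 of 21 and lower in 2, against 15.5% and 9.25% over all genes, with 2 higher without replicate 4. Dbp, a clock output factor, was 3.33, 3.55 and 48.6 CPM, and its difference of 2.15 ± 0.65 became -0.27 without replicate 4. No time of collection was used here for any mouse.

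Mup genes, whose urinary proteins carry scent signals, split into 5 of 20 higher and 8 lower, against 15.5% and 9.25% over all genes. Mup19 was 11079, 9808 and 3999 CPM in WSB/EiJ and averaged 5473 CPM in C57BL/6J, while the median of the other libraries was 3.62 CPM. Mup2 averaged 7.58 ± 2.83 CPM (SD, n = 3), like C57BL/6J at 9.48 CPM, against 5602 CPM in PWK/PhJ. Neither was particular to WSB/EiJ, and their counts were not whole in any library, so the levels of single Mup genes are uncertain. Iron genes were higher in 7 of 27 and lower in 4, with 2 higher without replicate 3. The hepcidin genes differed in direction, Hamp at 721, 1612 and 747 CPM (1.17 ± 0.25) and Hamp2 at 104, 224 and 186 CPM (-2.05 ± 0.33), and Hamp was not called without replicate 3 (adjusted p 0.105). Subunits of oxidative phosphorylation and chromatin regulators had 4 of 35 and 3 of 33 higher and 0 and 1 lower, near or below the shares over all genes. Without 1 WSB/EiJ library these counts of higher genes were 2 to 7 and as few as 1. The subunit gene mt-Co2 lay 1.23 above the mean of 8 (adjusted p 1.87e-06), but 0.39 without CAST/EiJ and PWK/PhJ (adjusted p 0.0912). Cell cycle genes were lower in 3 of 22, and in none without replicate 3 or 4.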

How the data were processed

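Gene-level estimated counts for 43346 genes in 27 libraries were deposited by the authors as 1 table, and 14.7% of the values are not whole numbers. RNA was polyA-selected and made into TruSeq libraries, per the labels' protocols. The submitters' processing notes list FastQC 0.11.5, DESeq2, GRCm38 and mm10 without roles; the aligner, counter and annotation are not given in the sources used here. Symbols and positions came from GENCODE M21 (GRCm38) by gene ID (42462 IDs matched) and promoter sequences from RefSeq (10486 tested genes matched). Library totals were 28512618, 31671372 and 26861119 counts for WSB/EiJ replicates 2, 3 and 4 and 17015956 to 35078511 over all. The TMM factors were 0.783 to 0.832 in WSB/EiJ and 0.722 to 1.23 over all, so WSB/EiJ CPM values are higher than totals alone would give. After this scaling 1 count was 0.0403 to 0.0460 CPM in WSB/EiJ. No fold is given against a group with at most 3 counts in every library. WSB/EiJ replicates differed by far more than counting noise (chi-square per degree of freedom 61.8 to 129). The p-values rest on a spread within strains that was estimated over all 27 libraries together, not on that of WSB/EiJ alone.

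Counts were rounded, filtered by strain (filterByExpr, 14482 genes kept), scaled by TMM and fitted with edgeR 4.0.16 (glmQLFit and glmQLFTest, 9 strains) in R 4.3.3. The contrast was WSB/EiJ minus the mean of 8 strain coefficients, and particular genes used the largest of 8 pairwise p-values, each adjusted over all genes. Where another strain is at or near 0, the fitted log2 difference depends on the prior count. Each SE of a log2 difference was derived from that difference and its F statistic, so it is no evidence beyond the p-value. Alternatives were DESeq2 1.42.0, other size factors, filters, a replicate block, a GC trend, cell-type covariates, leaving out CAST/EiJ and PWK/PhJ, and leaving out each library. The script was tested on simulated data. Named were the 12 higher and 12 lower particular protein-coding genes with at least 10 CPM and no overlap that differed most from the nearest strain, the 5 higher and 5 lower with the largest difference from the mean of 8 that were not particular, and up to 4 called members of each of 39 lists; others are marked, and 1 gene of the rule is not reported here. The members and lists were chosen with earlier results of these data known.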

Additional observations from a re-analysis of the deposited data

How the results depend on the processing

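Fitted with a replicate block, the genes particular to WSB/EiJ were 35 higher and 23 lower, of which 57 were among the 100 found without it, and the contrast with the mean of 8 gave 1882 and 1001, where 14 of 148 genes followed lost their call. Among these 14 were Dnajb1 (adjusted p 0.0828), Dbp (0.364), Cyp4a14 (0.525) and Ces2b (0.0707). Same-numbered libraries did not pair (correlations of their deviations from -0.167 to 0.181 over 16 pairs, 1 of 3 WSB/EiJ libraries best matched with its own number). Among genes named as particular, the block took the adjusted p of Lcn2 to 0.218, Aqp4 to 0.162, Cisd3 to 0.132, Vnn3 to 0.115, Pon3, Hsd17b13 and the 6 predicted genes from Gm13691 to Gm13698 to 0.0715, Anxa5 and Sult1e1 to 0.0571 and Ndrg1 to 0.0558. Without CAST/EiJ and PWK/PhJ there were 114 and 100, a count over fewer strains. With Kupffer and endothelial list means as covariates 48 were higher and 26 lower. DESeq2 gave 65 and 49. Leaving out 1 library gave 38 (without WSB/EiJ replicate 4) to 61 higher and 24 (the same library) to 40 lower, and in the contrast with the mean of 8 it gave 1564 to 2517 higher and 804 to 1531 lower, the lowest values without WSB/EiJ replicate 3. Of the 100 genes 38 were called under all 35 alternatives. The differences that turned sign were Ces2b (0.20 without CAST/EiJ and PWK/PhJ) and, without WSB/EiJ replicate 4, Cyp4a14 (-0.72; up to 1.59 without replicate 2) and Dbp (-0.27; up to 2.65 without replicate 2); the cause was not tested. The genes named as particular by the rule stayed called against the mean of 8 under all 35. With 3 libraries a strain, levels near 3 counts and single members of duplicated families are uncertain.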
